A study of Mus musculus with 32 samples.

Results

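Immediate early genes are the first genes a cell transcribes after a stimulus. The term is used below for all 10 listed genes, although S100a5 was included as an activity-dependent gene of olfactory sensory neurons. The 10 genes, followed here in the vomeronasal organ (VNO) of 32 mice, were Fos, Fosb, Junb, Egr1, Nr4a1, Nr4a3, Arc, Ier2, Dusp1 and S100a5. They were taken by gene name from the 49671 genes listed in the count tables by a rule that names no measured value, though earlier results of these data were known when the list was drawn up, and all 10 were found. The study sequenced total RNA, depleted of ribosomal RNA, from the VNO epithelium of individual mice at 42 days of age, to compare gene expression among inbred strains and between the sexes. The strains were labelled C57/BL6 (B6), 129S6/SVEV (129), SJL/J (SJL) and SWR/J (SWR), and each was represented by 4 males and 4 females. The labels name no stimulus and no engineered allele, and they do not say which cues the mice met before dissection, so every value below is a level in mice without a stated stimulus.

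The VNO is a paired organ at the base of the nasal septum whose sensory neurons detect pheromones and related cues. When such a neuron is excited, calcium entry and kinase cascades act on factors already present in the cell, among them CREB and SRF, and these switch on immediate early genes without new protein synthesis. Some of the products are transcription factors that act on later genes, others act at synapses or feed back on the kinases, and the transcripts of many are short-lived. In the VNO, staining for FOS and EGR1 is a common way to see which neurons responded to a cue. The same genes also respond to growth factors, stress and tissue handling in many cell types.

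The letters TGACG, on either strand, are the core of the cAMP response element that CREB binds, and they were searched for in the 250 bases before each gene's start in RefSeq (GRCm38.p6). RefSeq promoters were used for 7 of the 10 genes, and 6 of those 7 held at least 1 match, beside 17.8% of 32544 mouse promoters of the same length. The 4 promoters below belong to gene pairs with a positive correlation among mice in each strain, Fos with Dusp1 and Nr4a1 with Nr4a3. Other pairs shared this trait, among them Fos with Junb (lowest r 0.20, in SJL) and Junb with Dusp1 (lowest r 0.25, in SJL). The Junb promoter, with 1 match, is not printed, and a link between matches and correlation was not tested. Each is written 5′ to 3′ on the strand of its gene, with TGACG or its reverse complement CGTCA in capitals.
Fos (chr12:85473640-85473889, plus strand): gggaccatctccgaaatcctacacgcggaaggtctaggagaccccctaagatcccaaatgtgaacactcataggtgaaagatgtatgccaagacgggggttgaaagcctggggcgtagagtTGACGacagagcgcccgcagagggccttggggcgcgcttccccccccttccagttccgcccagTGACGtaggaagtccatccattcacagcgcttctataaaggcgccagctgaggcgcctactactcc
Dusp1 (chr17:26508473-26508722, minus strand): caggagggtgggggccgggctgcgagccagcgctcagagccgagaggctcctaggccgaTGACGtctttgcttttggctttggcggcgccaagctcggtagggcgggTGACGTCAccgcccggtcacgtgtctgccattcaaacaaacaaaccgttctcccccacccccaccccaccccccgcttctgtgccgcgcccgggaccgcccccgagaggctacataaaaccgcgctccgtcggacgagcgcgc
Nr4a1 (chr15:101266596-101266845, plus strand): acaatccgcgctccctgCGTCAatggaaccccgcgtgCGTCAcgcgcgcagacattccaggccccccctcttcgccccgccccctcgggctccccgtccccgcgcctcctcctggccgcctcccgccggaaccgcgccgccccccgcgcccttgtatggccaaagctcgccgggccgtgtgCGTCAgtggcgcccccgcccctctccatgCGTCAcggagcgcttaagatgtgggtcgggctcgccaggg
Nr4a3 (chr4:48045055-48045304, plus strand): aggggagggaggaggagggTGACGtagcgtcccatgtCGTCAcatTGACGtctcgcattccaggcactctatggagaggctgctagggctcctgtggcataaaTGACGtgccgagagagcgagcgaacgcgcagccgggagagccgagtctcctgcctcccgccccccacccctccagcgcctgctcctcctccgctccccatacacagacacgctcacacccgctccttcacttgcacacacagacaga

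Nr4a1 and Nr4a3 each held 4 matches and Dusp1 held 3, where 0.694% of all promoters held 3 or more. In Dusp1, 2 of the 3 matches come from 1 full site, TGACGTCA, which reads the same on both strands and was present in 1.55% of promoters. Fos held 2 matches, Junb and Fosb held 1 each, and S100a5 held 0. Of these 7 promoters, Fos also held the letters TATAAA, found on either strand in 12.3% of promoters, and 0 held the AP-1 letters TGANTCA, found in 6.73%. A match describes the letters and is not evidence that a factor was bound in this tissue.

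Each run label holds a number from 1 to 4, read here as the sequencing lane, a reading the labels do not state. The libraries held between 5106398 and 18640871 reads on genes, with 8 libraries from each strain, and 18382 genes passed the filter on low counts. Of the 10 immediate early genes, 9 passed it, and Fosb, with between 0 and 13 reads in a library, did not. The tissue label was matched by its markers: the mean normalized count of Omp, made by mature chemosensory neurons, lay between 16606 and 19534 in the 4 strains, and the G proteins Gnai2 and Gnao1 of the apical and basal vomeronasal neurons were present in every library. The VNO channel was read through Xntrpc, a readthrough transcript that spans it, at strain means between 715 and 1213, while the symbol Trpc2 was listed at 0. A pair of libraries stood apart in tissue content, since the summed count of gland markers was 184332 in B6 female 1 and 180941 in 129 male 1 and at most 87154 elsewhere. Since this is bulk RNA, fewer responding cells and less RNA per cell cannot be told apart. Reads of every strain were aligned to the B6 genome, which can lower a count where a strain's sequence differs, and the size of that effect was not tested.

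Per length, S100a5 and Dusp1 had the highest levels, with means over the 32 mice of 32.1 and 20.4 on the TPM scale, which divides reads by exon length and sets each library to the same total. Ier2 and Junb followed at 13.3 TPM each, then Fos at 4.09, Nr4a1 at 3.59, Nr4a3 at 2.80, Egr1 at 2.39 and Arc at 2.01. Fosb was lowest at 0.162 TPM. The order of S100a5 changed with the strain, because its mean was 2.08 TPM in 129 and 50.9 TPM in B6. All levels that follow are normalized counts, which can be compared between mice for 1 gene and not between genes.

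The strains differed in a subset of the 10 genes. A gene was called differentially expressed (DE) between a pair of strains at a fold change (FC) over 2 with a false discovery rate (FDR) under 0.05 in edgeR, adjusted over all genes tested. By this rule 4 of the 9 tested genes were DE in at least 1 of the 6 strain pairs, namely Nr4a1, Nr4a3, Arc and S100a5, where 19.8% of all tested genes were. Pair by pair, S100a5 alone was called higher in B6 than in 129 (beside 8.72% of all genes) and in SJL than in 129 (5.61%). In SWR against 129, Nr4a1 and S100a5 were called higher (4.62%) and Arc lower (3.11%). In SWR, Nr4a3 was called higher than in B6 (2.52%), and Nr4a1 and Nr4a3 higher than in SJL (2.19%), while in SJL against B6 Nr4a1 passed the FDR limit alone (LFC -0.61, FDR 0.0423), and still did in 23 of the 32 fits that left out 1 library and in 2 of the 4 that left out a lane (FDR up to 0.194). An F test over the strains with no limit on FC called 4 of 9, namely Junb, Nr4a1, Nr4a3 and S100a5, a smaller share than the 73.1% of all tested genes. Fos and Egr1, the genes most used to mark active vomeronasal neurons, were not called among strains by either rule.

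**Figure D1:**
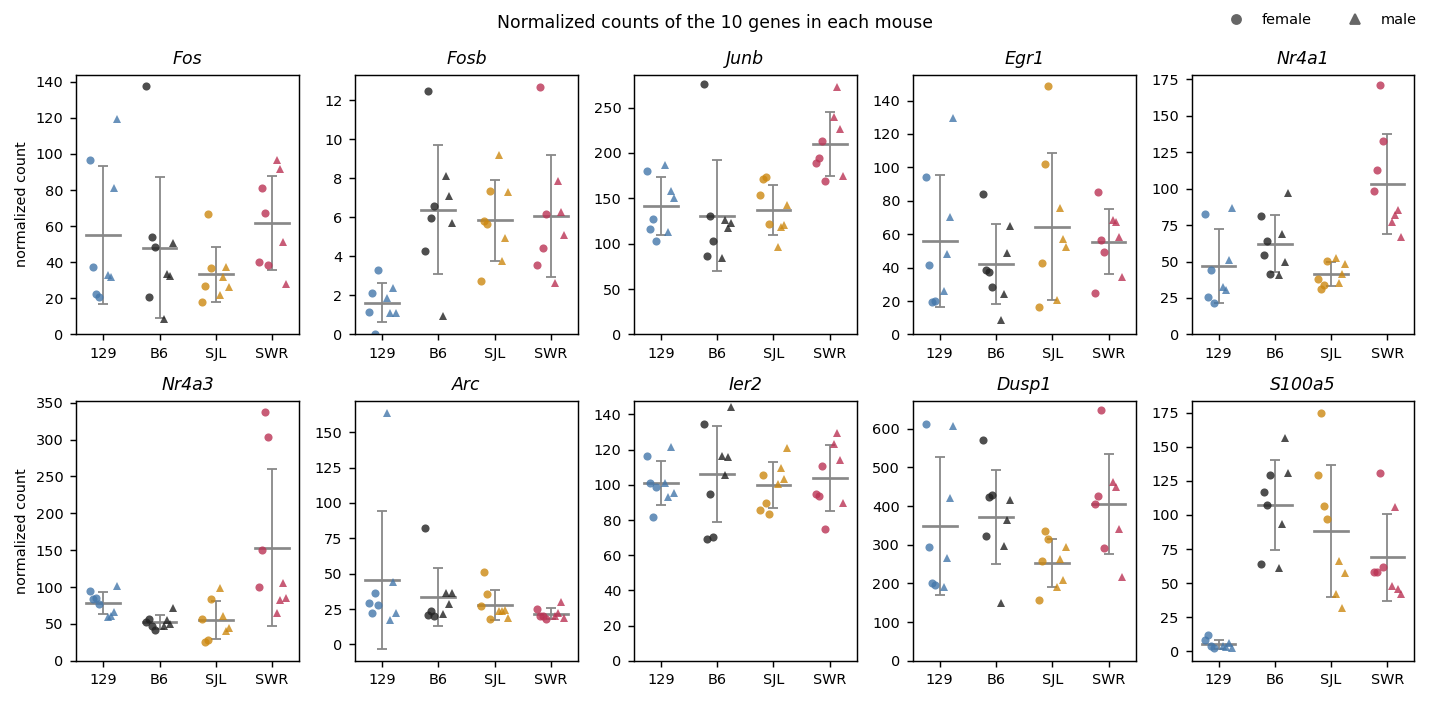
Normalized count (vertical axis, linear, a separate scale for each gene) of the 10 immediate early genes in each of 32 mice, by strain (horizontal axis); circles are females, triangles are males, and grey lines give the mean ± SD of 8 mice. Nr4a1 in all 8 SWR mice lies above all 8 SJL mice, and S100a5 in all 8 mice of 129 lies below every mouse of the other strains, from a highest value of 11.7 in 129 to a lowest value of 31.5 elsewhere.

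Fos encodes the AP-1 subunit that gives the classical marker of neuronal activity. Its normalized count had a lowest, median and highest value of 8.38, 40.9 and 137 in B6, 20.6, 35.0 and 120 in 129, 27.9, 59.2 and 96.6 in SWR, and 18.2, 29.5 and 66.7 in SJL. Each strain's range overlapped every other, and mice of 1 strain differed more than the strain means, which ran from 33.3 ± 15.1 in SJL to 61.8 ± 26.1 in SWR (SD, n = 8). The widest pair was SWR against SJL, with a log2 fold change (LFC) of 0.93 that did not pass (edgeR FDR 0.0733).

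Fosb, which encodes a close relative of FOS, was near the limit of detection. In 129 its lowest, median and highest values were 0, 1.52 and 3.29, from 0 to 4 reads a library. The medians were 6.28 in B6, 5.74 in SJL and 5.62 in SWR, and the range of each of these strains overlapped that of 129. In fits that kept genes with low counts, which were chosen after the data were seen, Fosb was higher than in 129 by an LFC of 1.84 in B6 (FDR 0.00156), 1.78 in SJL (FDR 0.00332) and 1.82 in SWR (FDR 0.00238) by edgeR. The libraries of 129 also held fewer genes with a read, between 22690 and 23895, against 23772 to 35073 in B6, 24649 to 34165 in SJL and 23969 to 30966 in SWR, and the part of this in the Fosb difference was not tested.

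Junb, which encodes a JUN-family partner of FOS, was highest in SWR. Its lowest, median and highest values in SWR were 169, 204 and 273, and its medians in the other strains were 139 in 129, 120 in B6 and 132 in SJL. The ranges overlapped, in B6 through a single mouse, B6 female 1, at 276. SWR was higher than B6 by an LFC of 0.67 (FDR 0.0025), than SJL by 0.63 (FDR 0.00488) and than 129 by 0.56 (FDR 0.00865), all by edgeR and all below the FC limit of 2.

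Egr1, which encodes a zinc finger transcription factor and lies on chromosome 18, varied widely within strains. Its lowest, median and highest values were 16.4, 54.7 and 149 in SJL, 19.5, 44.8 and 130 in 129, 24.9, 57.5 and 85.0 in SWR, and 8.38, 38.2 and 84.2 in B6. All ranges overlapped and the F test over strains did not pass (edgeR FDR 0.607).

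Nr4a1 and Nr4a3 encode orphan nuclear receptors of the NR4A family, and both were highest in SWR. For Nr4a1 the lowest, median and highest values were 66.8, 91.9 and 171 in SWR, 41.0, 59.1 and 97.3 in B6, 30.9, 39.8 and 52.3 in SJL, and 21.4, 38.5 and 86.4 in 129. Every SWR mouse lay above every SJL mouse, and the other ranges overlapped. Nr4a1 was 2.46-fold higher in SWR than in SJL (LFC 1.30, SE 0.24, edgeR FDR 5.23e-05) and 2.20-fold higher than in 129 (LFC 1.14, SE 0.24, FDR 0.000204), and the LFC of 0.69 against B6 was below the FC limit (FDR 0.0167).

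For Nr4a3 the lowest, median and highest values were 64.7, 103 and 337 in SWR, 59.9, 80.3 and 101 in 129, 41.7, 51.0 and 71.5 in B6, and 26.1, 50.5 and 98.9 in SJL. The SWR range overlapped each of the others and was the widest, with a mean of 153 ± 106 (SD, n = 8). Nr4a3 was 2.74-fold higher in SWR than in B6 (LFC 1.45, SE 0.28, edgeR FDR 7.98e-05) and 2.59-fold higher than in SJL (LFC 1.37, SE 0.27, FDR 0.00017). Against 129 the LFC was 0.91 (FDR 0.0061). Within SWR the values were 101, 150, 337 and 303 in the 4 females and 64.7, 82.4, 105 and 85.4 in the 4 males, so the 3 highest were females.

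Arc encodes a protein of the postsynaptic cytoskeleton whose RNA travels to active synapses. Its strain median lay between 20.4 in SWR and 28.5 in 129, with 26.1 in B6 and 24.2 in SJL, and a pair of mice stood far above them, 129 male 1 at 164 and B6 female 1 at 82.1. Arc was DE between SWR and 129 (LFC -1.07, SE 0.36, edgeR FDR 0.0174), and without 129 male 1 the LFC was -0.38 and the call was lost (FDR 0.263). These mice are the same pair in which gland markers were highest. Ciliated cell markers were also highest in this pair, with sums of 3370 in B6 female 1 and 5720 in 129 male 1 and at most 1480 elsewhere. Smooth muscle markers summed to 10096 and 4117 in them, to 6555 in SJL female 1 and to 4514 in SWR female 2. Arc was 27.3 in SJL female 1, where gland markers summed to 87154, and 20.3 in SWR female 2. The part of these tissues in the Arc values was not tested.

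Ier2, a nuclear protein gene induced with Fos, and Dusp1, whose product removes phosphate from MAP kinases and so limits the signal that induces it, differed less. Ier2 ran between 69.4 and 144 over all mice, its strain medians lay between 100 and 111, and the F test over strains gave an FDR of 0.818. For Dusp1 the lowest, median and highest values were 217, 417 and 647 in SWR, 149, 390 and 570 in B6, 190, 280 and 612 in 129, and 157, 260 and 337 in SJL. The ranges overlapped, the F test did not pass (FDR 0.0692), and the SWR minus SJL difference, an LFC of 0.68 at an FDR of 0.0294, was below the FC limit. It kept an FDR under 0.05 in 27 of the 32 fits that left out 1 library and in 1 of the 4 that left out a lane (FDR up to 0.137). Dusp1 shares its interval with Ergic1 and Junb shares part of its interval with Prdx2, in both cases on the opposite strand, and reads were counted by strand.

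S100a5 gave the largest strain difference. It encodes a small calcium-binding protein of the S100 family that is strongly activity-dependent in olfactory sensory neurons. Its lowest, median and highest values were 2.21, 3.75 and 11.7 in 129, from 2 to 11 reads a library, against 61.5, 112 and 156 in B6, 31.5, 81.6 and 175 in SJL, and 42.3, 58.2 and 131 in SWR. No mouse of 129 overlapped any mouse of another strain. It was 22.0-fold higher in B6 than in 129 (LFC 4.46, SE 0.36, edgeR FDR 2.2e-12), 16.7-fold higher in SJL (FDR 3.03e-11) and 13.8-fold higher in SWR (FDR 1.95e-10). SWR was below B6 by an LFC of -0.67 (FDR 0.0325), which is under the FC limit and kept an FDR under 0.05 in 24 of the 32 fits that left out 1 library and in 2 of the 4 that left out a lane (FDR up to 0.277). Differences among strain means made up 88.3% of its variance on the log2 scale, beside a median of 42.5% over all tested genes.

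The abundant neighbours of S100a5 on chromosome 3 differed far less. Strain means ran from 1049 in 129 to 1372 in SJL for S100a6, from 201 in SWR to 246 in 129 for S100a13 and from 120 in SWR to 154 in B6 for S100a16. S100a3 and S100a4, which lie beside it, were near the limit of detection, at means of 0.83 and 1.06 in 129 against 4.26 to 5.14 and 4.42 to 5.94 elsewhere. The listed markers of olfactory sensory neurons summed to between 27394 and 32287 in 129. The mean of this sum was highest in 129, at 30202, against 29849 in SJL, 27460 in SWR and 24059 in B6, so its order was not that of S100a5. Cnga2, Stoml3 and Gnal made up little of that sum, so the sum does not measure how many of these neurons a library held. Among the defining markers of these neurons, the channel subunit Cnga2 had medians of 0.41 in 129, 1.33 in SJL, 3.11 in SWR and 4.42 in B6, where the highest mouse reached 134. Stoml3 had medians of 9.18 in 129, 8.28 in SJL, 12.8 in B6 and 16.8 in SWR. The fewer genes with a read in 129 libraries, given above, and the alignment to B6 move with this difference, and their part in it was not tested.

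**Figure D2:**
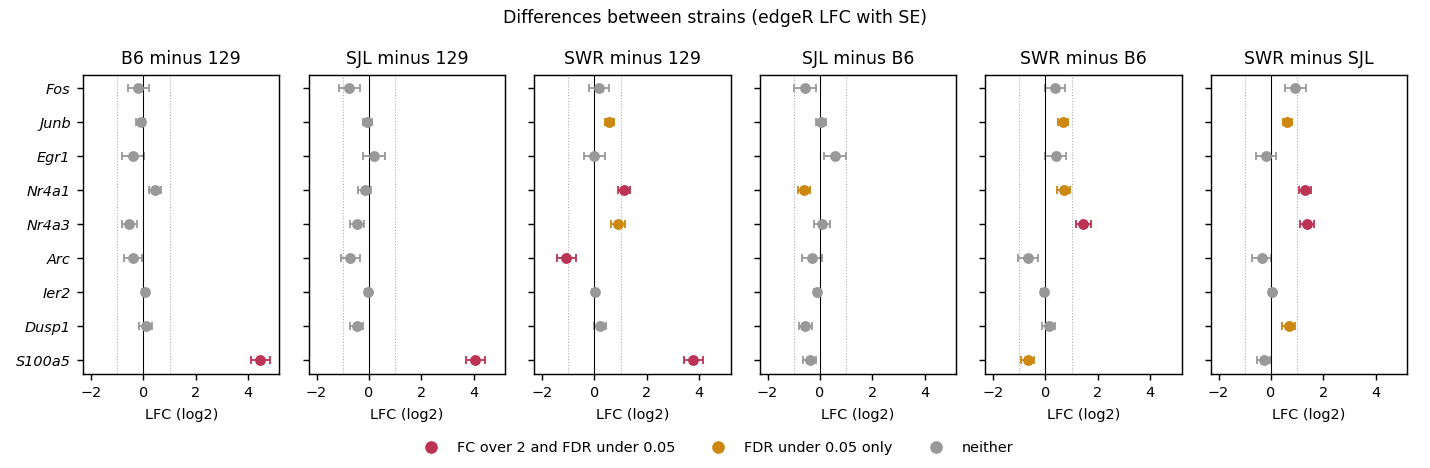
LFC between strains (horizontal axis, log2) with its SE from edgeR for the 9 tested genes, 1 panel for each of the 6 strain pairs; red marks FC over 2 with FDR under 0.05, orange FDR under 0.05 alone, grey neither, and dotted lines mark an FC of 2. S100a5 stands near 4 in the 3 panels against 129, and Junb, Nr4a1 and Nr4a3 lie to the right of 0 in each panel that subtracts another strain from SWR.

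SWR was the strain in which immediate early genes were most often highest, with the highest mean in 5 of the 9 tested, beside 20.2% of all tested genes. Other genes went the other way. S100a5 was lower in SWR than in B6, as given above. Arc had its lowest mean in SWR, at 21.7 against 27.8 in SJL, 33.6 in B6 and 45.4 in 129, where 129 male 1 raised it. Junb, Nr4a1 and Nr4a3 were higher in SWR than in each of the other 3 strains at an FDR under 0.05 with no limit on FC, which is 3 of 9, beside 4.25% of all tested genes (781 of 18382). The opposite pattern, lower in SWR than in each other strain, was found in 3.93% of all genes. The 3 comparisons share the SWR libraries, and this count was chosen after the strain values were seen. It was 3 in DESeq2 and stayed at 3 when any 1 of the 32 libraries was left out, and it was 1 and 0 without the 8 libraries of sequencing lane 2 or of lane 3. For the NR4A genes the SWR difference was larger in females. Nr4a3 averaged 84.4 in SWR males, against 71.8 in 129, 55.7 in B6 and 60.8 in SJL males, and 223 in SWR females, against 85.1, 49.4 and 48.7. Nr4a1 averaged 77.7 in SWR males, against 50.2, 64.3 and 44.2, and 128.6 in SWR females, against 43.4, 60.2 and 38.4. The strains were not tested within 1 sex.

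The same pattern was frequent in a wider list of immediate early and related genes. Of 57 listed genes beyond the 10, in the AP-1, EGR and NR4A, primary response, neuronal activity and DUSP groups, 49 were tested, and 15 of these were higher in SWR than in each other strain. They were Maff, Mafk, Fosl2 and Atf3 among AP-1 relatives, Klf6, Ctgf, Btg2, Per1, Plk2, Pim1, Trib1 and Mcl1 among primary response genes, Nptx2 among neuronal activity genes, and Dusp5 and Dusp14. The count was 14 without B6 female 1 and 129 male 1, and 14 in DESeq2. The SWR mean was the highest of the strain means in 53.1% of the 49 and in 20.2% of all tested genes.

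The LFC of SWR over another strain reached 1.71 for Ctgf, 1.42 for Atf3, 1.31 for Dusp5 and 1.23 for Maff. Maff, a small MAF factor, averaged 223 in SWR and between 95.8 and 97.0 in the other strains. Atf3, a stress-induced relative of CREB, averaged 276 in SWR against 99.8 in SJL, 121 in 129 and 187 in B6. Ctgf, a secreted matricellular protein and a target of SRF and YAP signalling, averaged 1993 in SWR against 603 in 129, 871 in B6 and 936 in SJL. Median LFC over the 9 tested immediate early genes was 0.63 for SWR minus SJL, 0.36 for SWR minus B6 and 0.21 for SWR minus 129, and over the 49 further genes it was 0.41, 0.20 and 0.24, where the medians over all genes were -0.01, -0.02 and -0.01.

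Other lists gave different orders of the strains. The summed count of 8 heat shock genes ran from 19865 to 24396 in SWR, from 19618 to 23756 in 129, from 18599 to 23618 in SJL and from 26835 to 34682 in B6, so it was highest in B6. Within that list the inducible Hspa1b averaged 78.0 in SWR against 26.9 in 129, 38.6 in SJL and 48.0 in B6. It is the only heat shock gene named here, and its order does not stand for the list. Of the 8 genes, 7 passed the F test over strains, beside 73.1% of all tested genes. The summed count of vomeronasal neuron markers was highest in SWR, from 62615 to 73945, with medians of 68172 in SWR, 64003 in 129, 61209 in SJL and 56294 in B6, and its part in the immediate early gene differences was not tested. Smooth muscle and fibroblast markers were not highest in SWR, with medians of 2080 and 18057 against 2485 and 21259 in SJL.

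By group, 3 of 9 tested AP-1 relatives, 0 of 1 EGR and NR4A relative, 7 of 26 primary response genes, 1 of 7 neuronal activity genes and 2 of 6 DUSP genes were DE in at least 1 strain pair, which makes 13 of 49 beside the 19.8% of all genes. The smallest strain FDR among AP-1 relatives was that of Batf3, a factor of lymphoid and myeloid cells, with means of 20.5 in B6, 58.7 in SJL, 84.2 in SWR and 108 in 129 (edgeR FDR 2.06e-17). Ppp1r15a, which restores translation after stress, was highest in SJL at 927 against 541 to 603 elsewhere, and Nrn1, a neuronal surface protein gene, was highest in B6 at 31.1. Dusp8 and Dusp16, whose products act on stress kinases, were highest in 129 at 872 and 864. Dusp4, which acts on ERK, was highest in SWR at 142.

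Of 22 tested genes of the pathways upstream, 18 passed the F test over strains (beside 73.1% of all genes) and 1 was DE in a pair (beside 19.8%), Camk4, a calcium-dependent kinase that acts on CREB. Camk4 averaged 164 in SWR, 135 in SJL, 125 in B6 and 60.2 in 129. Camk2a was highest in 129 at 269, and Mapk3, which encodes ERK1, and its substrate gene Rps6ka1 were highest in SJL at 1113 and 477. Of 5 genes known as activity-dependent in olfactory sensory neurons, 1 was DE in a pair (beside the same 19.8%), Lrrc3b, with means of 80.2 in B6, 70.3 in SWR, 49.5 in SJL and 22.1 in 129. Kirrel2, an axon adhesion gene, was also lowest in 129, at 3334, and highest in SWR, at 5776.

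The sexes did not differ in any of the 9 tested genes by the same rule without a limit on FC (0 of 9 in edgeR, beside 0.283% of all genes), and DESeq2 also called 0. At an unadjusted p under 0.05 there were 2, where 8.97% of all genes passed. Ier2 was higher in the 16 males, with a lowest, median and highest value of 89.7, 112 and 144 against 69.4, 94.3 and 134 in the 16 females (LFC 0.24, edgeR FDR 0.302). S100a5 had a male minus female LFC of -0.54 (edgeR FDR 0.382), and in SJL the 4 females, from 96.9 to 175, lay above the 4 males, from 31.5 to 66.3. Within SJL that difference was an LFC of -1.35 and did not pass (edgeR FDR 0.0943, where 0.125% of all genes passed).

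The interaction of sex and strain was not called in any of the 9 genes at an FDR under 0.05 (0 of 9 in edgeR, beside 0.0163% of all genes), DESeq2 also called 0, and at an unadjusted p under 0.05 there were 2, Nr4a3 and S100a5, where 8.94% of all genes passed. For Nr4a3 the interaction FDR was 0.269. A test of the sexes within SWR, added after the values were seen, gave a male minus female LFC of -1.42 for Nr4a3 (SE 0.30, edgeR FDR 0.0206, beside 0.348% of all genes). That call was lost on leaving out SWR female 3 (LFC -1.15, FDR 0.182), SWR female 4 (LFC -1.23, FDR 0.156), SWR male 1 (FDR 0.119), SWR male 2 (FDR 0.0792) or SWR male 4 (FDR 0.072). Nr4a1 in SWR ran from 98.3 to 171 in females and from 66.8 to 85.4 in males, without overlap, at an LFC of -0.74 that did not pass (edgeR FDR 0.443).

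Mice of the same strain and sex differed more in these genes than in most. The residual SD of the log2 level, after the means of strain and sex were removed, had a median of 0.56 over the 9 tested genes and of 0.18 over all tested genes. Egr1 and Fos lay at the 98.1 and 97.1 percentile of all genes in this spread, Arc at 92.8, S100a5 at 87.6 and Dusp1 at 87.1, and Ier2 was the most even at 59.5. Low counts add to such spread, so the biological coefficient of variation from edgeR was also set against the trend of genes of like abundance. It was 3.16 times the trend for Dusp1, 2.56 times for Egr1, 2.38 times for Fos and 0.79 times for Ier2. The median ratio over all tested genes was 0.77, so Ier2 lay near the middle.

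The variation among mice was shared by part of the group. For every pair of the 10 genes, log2(normalized count + 1) was centred on the mean of the mouse's strain and sex, and Pearson's r was taken over the 32 mice with a permutation test that shuffled mice within strain and sex (100000 shuffles, two-sided, adjusted over 45 pairs). The adjusted p was under 0.05 in 13 of 45 pairs, all positive, and 12 of the 13 also passed with Spearman's rho. In 10 of the 13 the sign of r was the same in all 4 strains, and the median r of all 45 pairs was 0.22. Pairs of other genes were not put through the same test. Whether these values are particular to the 10 genes was therefore not tested.

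**Figure D3:**
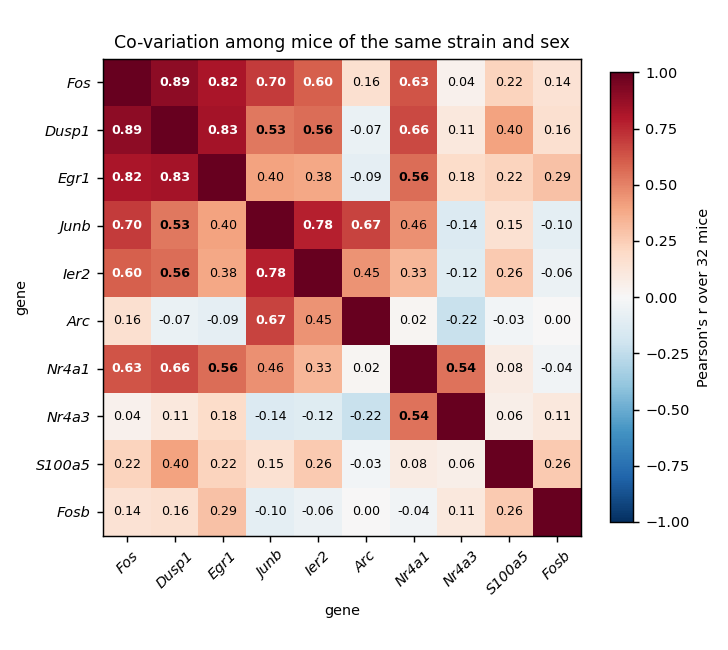
Pearson's r (colour and printed value) between each pair of the 10 genes over 32 mice, from log2 values centred on the mean of each mouse's strain and sex; bold values have an adjusted permutation p under 0.05. A block of high values joins Fos, Dusp1 and Egr1, from 0.82 to 0.89, and S100a5 and Fosb have no bold value.

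Fos, Dusp1 and Egr1 formed the tightest group. Fos and Dusp1 had r = 0.89 and rho = 0.90, with r between 0.73 and 0.98 within the strains. Within the 4 numbers read as sequencing lanes their r lay between 0.75 and 0.94. It was 0.86 without the 2 mice farthest from the median of Fos. Within single strains of 8 mice the exact permutation p of Fos and Dusp1, adjusted over 36 tests, was 0.05 in 129 and B6, 0.0625 in SWR and 0.258 in SJL, so no strain alone fell under 0.05. Fos and Egr1 had r = 0.82 and rho = 0.85, between 0.79 and 0.95 within strains and between 0.59 and 0.97 within lanes, and 0.77 without those 2 mice. Egr1 and Dusp1 had r = 0.83, between 0.49 and 0.99 within strains. For all 3 pairs the adjusted permutation p was 0.000112, from the smallest p these shuffles can give (1e-05), and for rho it was at most 0.0003.

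Junb was correlated with 4 of the other genes, Ier2, Fos, Arc and Dusp1. Junb and Ier2 had r = 0.78 and rho = 0.66 (adjusted permutation p 0.00081 and 0.00315), between 0.43 and 0.90 within lanes. Junb and Arc had r = 0.67 and rho = 0.63 (0.00142 and 0.0081), while Fos and Arc had r = 0.16. The r of Junb and Arc was 0.66 in lane 1, which holds 129 male 1 and B6 female 1. It was 0.76, 0.02 and 0.28 in lanes 2 to 4, so it did not hold in each lane. Fos and Junb had r = 0.70 and rho = 0.67 (0.00283 and 0.00397), between 0.20 in SJL and 0.87 in SWR and between 0.57 and 0.87 within lanes. Without the 2 mice farthest from the median of the first gene, r was 0.63, 0.57 and 0.64 for these 3 pairs. For Junb and Arc those mice were chosen by Junb, so the value does not show how far r rests on mice apart in Arc, such as 129 male 1. Junb and Dusp1 had r = 0.53 and rho = 0.62 (0.00895 and 0.00669). Ier2 was also correlated with Fos, at r = 0.60 and rho = 0.54 (0.012 and 0.0281), and with Dusp1, at r = 0.56 and rho = 0.59 (0.00579 and 0.0081). Arc and Ier2 had r = 0.45 and rho = 0.41, which did not pass (0.107 and 0.105).

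Nr4a1 stood between 2 sets. It had r = 0.66 with Dusp1 and r = 0.63 with Fos (adjusted permutation p 0.01 for both), with rho of 0.56 and 0.54 (0.0281 and 0.0303). In SJL these r were -0.03 and -0.21, and within lanes they ran down to -0.04 and -0.42, so they did not hold throughout. Nr4a1 also had r = 0.56 with Egr1 (adjusted permutation p 0.0223), the called pair that did not pass by rho (0.47, adjusted permutation p 0.0789). That r was 0.02 in SJL and ran between -0.63 and 0.92 within lanes. With Nr4a3, Nr4a1 had r = 0.54 and rho = 0.62 over all mice (0.000112 and 0.000562), between 0.73 and 0.84 within every strain and between 0.20 and 0.78 within lanes, while Nr4a3 and Fos had r = 0.04. By strain, Nr4a3 and Fos had r = 0.75 in 129 and r = -0.40 in SJL, neither of which passed after adjustment (exact permutation p 0.0104 and 0.457, adjusted 0.0625 and 0.685 over 36 tests, n = 8 each). S100a5 had its highest r with Dusp1, at 0.40, which did not pass.

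**Figure D4:**
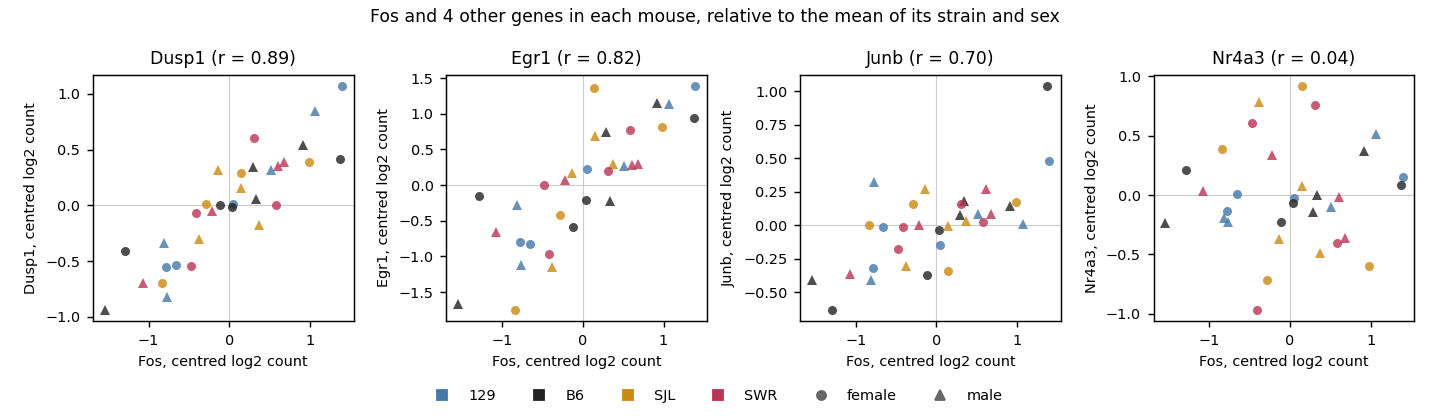
Log2(normalized count + 1) of Dusp1, Egr1, Junb and Nr4a3 (vertical axes) against that of Fos (horizontal axes) in each of 32 mice, each centred on the mean of the mouse's strain and sex; colour gives the strain and shape the sex. Dusp1 and Egr1 climb with Fos over the 32 mice (r = 0.89 and 0.82), Junb climbs with 1 B6 female far above (r = 0.70), and Nr4a3 shows no slope (r = 0.04).

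The same question was put to all genes at once, by fitting the Fos level of each mouse beside strain and sex in edgeR. Of 18381 genes 13 rose with Fos at an FDR under 0.05 (0.0707%) and 1 fell (0.00544%). Of the 8 other immediate early genes tested, 3 were among those that rose. Dusp1 ranked first of all genes, with a slope of 0.56 (SE 0.054, FDR 1.3e-07), so its level rose by 0.56 log2 units for each log2 unit of Fos. Egr1 ranked 2 (slope 0.89, SE 0.12, FDR 8.4e-05) and Junb ranked 9 (slope 0.31, SE 0.056, FDR 0.00814).

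Without B6 female 1 the Junb slope was 0.22 and did not pass (FDR 0.306), the only 1 of the 32 single libraries whose absence ended the call, and the call was also lost without the 8 libraries of any 1 of the 4 lanes (FDR up to 0.95). The calls of Dusp1 and Egr1 held in each of these settings. Without 129 male 1 the number of genes associated with Fos was 27 in place of 14. Nr4a1 ranked 115 (slope 0.32, FDR 0.28) and Ier2 ranked 737 (slope 0.12, FDR 0.387). Arc, S100a5 and Nr4a3 ranked 7130, 12048 and 15691, with slopes of 0.18, 0.08 and -0.03.

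Genes outside the 10 that rose with Fos were of 2 main kinds. Ier3 (slope 0.35, FDR 0.00196), Btg2, an antiproliferative gene (slope 0.25, FDR 0.00196), and Zfp36, whose product speeds the decay of short-lived transcripts (slope 0.25, FDR 0.0111), are listed primary response genes, 3 of the 49. Hist1h3a, Hist1h1e, Hist2h3b, Hist1h4n, Hist1h1d and Hist1h2ak are histone genes, with slopes between 0.23 and 0.57, and their reads can be shared with near-identical copies, so each is uncertain. Serpina1e, a protease inhibitor gene, rose as well (slope 1.22), and its counts came mainly from B6, with a mean of 642 against at most 2.13 elsewhere. The gene that fell was Gm26945, a long non-coding RNA gene (slope -0.38, FDR 0.00324). Over the 49 further listed genes 42 slopes were positive, with a median of 0.08, beside a median of 0.0046 over all genes.

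**Figure D5:**
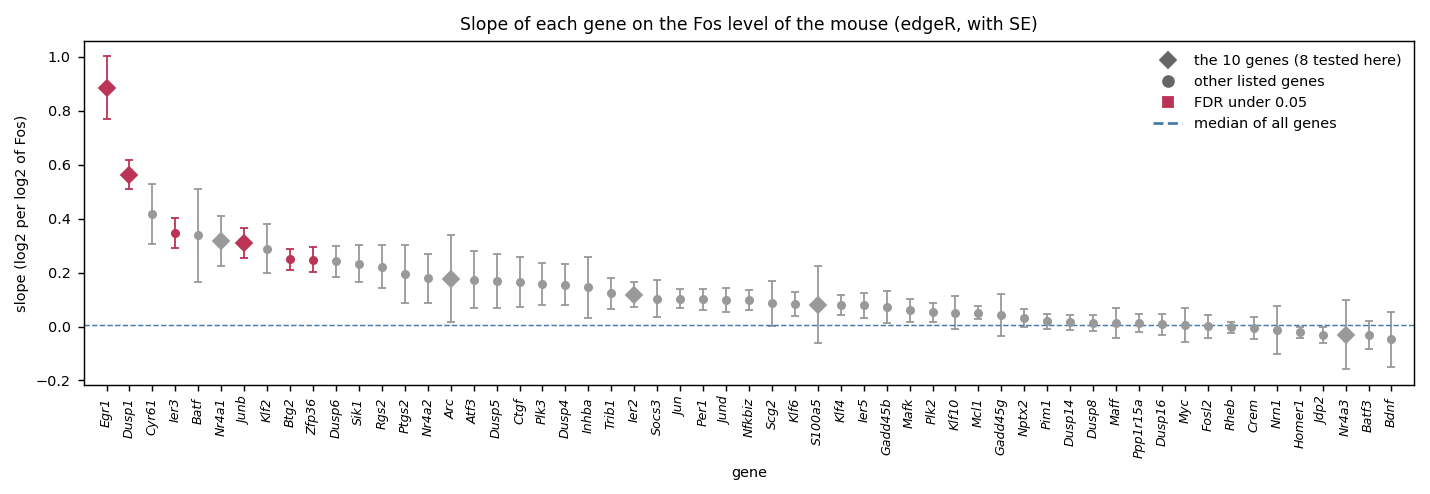
Slope of each gene on the Fos level of the mouse (vertical axis, log2 per log2, with its SE from edgeR) for the 8 other tested immediate early genes (diamonds) and the 49 further listed genes (circles), sorted; red marks an FDR under 0.05 over all genes and the dashed line the median of all genes. Egr1 (0.89) and Dusp1 (0.56) stand highest, and Nr4a3 (-0.03) lies among the lowest.

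With another gene in place of Fos, a choice made after the data were seen for the slopes of single genes, the partners changed. On Egr1, Fos had a slope of 0.82 and Dusp1 of 0.49, and these 2 were called. On Junb, Fos (1.67), Arc (1.45, FDR 0.000231), Ier2 (0.36, FDR 0.0145) and Dusp1 (0.78, FDR 0.0173) were called, all by edgeR, while Egr1 was not (slope 1.03, FDR 0.0794). The slopes on Egr1 and Junb were not refitted with libraries left out, such as 129 male 1 and B6 female 1, which stood apart in Arc. Junb was a broader covariate, with 2414 genes associated with it. The summed levels of the marker lists of cell types, centred in the same way, had r with Fos between -0.37 (red blood cells) and 0.25 (neutrophils), with 0.23 for fibroblasts, 0.21 for smooth muscle, 0.14 for endothelium, 0.07 for glands and 0.06 for ciliated cells. The summed red blood cell level ran from 123 to 591 in 129, 248 to 472 in SWR, 141 to 504 in SJL and 152 to 483 in B6, and the part of these cells in the shared variation was not tested.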

How the data were processed

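Total RNA from the VNO epithelium of single mice was depleted of ribosomal RNA and made into stranded libraries. Per the labels and the study's methods, the authors trimmed reads with Trim Galore, aligned them to the B6 genome (mm10) with STAR, counted uniquely mapped reads by strand and deposited raw counts. The second deposited table holds a normalized signal, the counts that the authors divided by DESeq2 size factors, used here for levels and correlations. Differences came from the raw counts in edgeR 4.0.16 (R 4.3.3): TMM, filterByExpr, quasi-likelihood tests over all 32 libraries with strain and sex as terms, and Benjamini-Hochberg FDR over all genes tested. The Fos level entered as log2(normalized count + 1). DESeq2 1.42.0 was an alternative. TPM used exon lengths for 49326 of 49671 identifiers. The scripts were tested on simulated data. The 10 genes and the lists were chosen with earlier results of these data known. From each further list the genes with the smallest strain FDR (up to 4) were named, and the genes higher in SWR by a rule chosen after seeing the data. Mice were separate animals, numbered from 1 to 4 within strain and sex by a number in the run labels that was read as the sequencing lane, a reading the labels do not state.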

Additional observations from a re-analysis of the deposited data

Results flagged for a closer look

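A library was taken as lying apart when its gap to the nearest mouse of its group exceeded Dixon's 95% limit. Chance alone gives about 1 such library in 20 groups, and 9 of 120 groups (7.5%) had one, 5 of 40 strain groups of 8 mice and 4 of 80 groups of 4. B6 female 1 accounted for 4 of the 9: its normalized count was 137 for Fos, where the next B6 mouse had 53.7, 276 for Junb, where the next had 130, and 82.1 for Arc, apart both in B6 and in the B6 females. 129 male 1 had 164 for Arc, where the next mouse of 129 had 44.1. SJL female 3 had 66.7 for Fos, where the next SJL mouse had 37.4. Among the males of 129, male 4 had 101 for Nr4a3, where the next had 65.5. S100a5 was 131 in SWR female 3 and 106 in SWR male 2, where the next mice of their sex had 61.7 and 47.8.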

How the results depend on the processing

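Of 337 recomputed counts 331 stayed within 1.5 times the reported one, where a 0 that stayed 0 and a change from 4 to 6 both counted as within. Without the filter on low counts the F test over strains called 7 genes in place of 4, and the interaction of sex and strain 2 in place of 0, Nr4a3 and S100a5. Leaving out libraries gave 3 to 5 genes DE among strains (Arc was lost without 129 male 1), 4 to 6 by the F test, 0 for the sexes and the interaction, 2 to 3 associated with Fos, 11 to 16 further listed genes and 0 to 3 of the immediate early genes higher in SWR than in each other strain, and 3 to 16 correlated pairs. Without B6 female 1 alone 2 genes were associated with Fos (Junb was lost), as without all 8 libraries of any number. Leaving out all libraries of a number gave the low ends of the pairs and of the SWR counts: without number 1 there were 3 correlated pairs and without number 4 there were 7, and without number 2 or 3 there were 1 and 0 genes higher in SWR. Single slopes on Fos that were not called changed sign: Nr4a3 ran from -0.12 to 0.10, Arc from -0.066 to 0.28 and S100a5 from -0.026 to 0.26. Genes associated with Fos numbered 14 here, 43 in DESeq2 and 22 without the filter, and between 2 and 7 without the libraries of any 1 number.

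The numbers 1 to 4 were read as sequencing lanes. Over 112 pairs of libraries of the same number and different groups the median correlation of deviations was -0.017 (-0.305 to 0.519). Of 32 libraries, 5 were closest to their own number. This check took 16762 genes together, so it cannot show that the number is neutral for a single gene or tissue. Arc averaged 49.0 in number 1, which holds B6 female 1 and 129 male 1, and 26.8, 30.3 and 22.4 in numbers 2 to 4. The number made up 15.9% of the Arc variance, beside a median of 3.73% over all tested genes. After that pair, gland markers summed highest in SJL female 1 (87154), 129 female 1 (57994.5) and SJL male 1 (48882), also of number 1, but to 9336 in B6 male 1. With the number as a replicate block, 3 genes were DE among strains (Arc was lost), 4 passed the F test, 0 differed by sex and 0 in the interaction, 3 were associated with Fos, 16 pairs were correlated, and 19 genes in all were associated with Fos. Low counts limit Fosb in every strain and S100a5 in 129.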
